A study of Homo sapiens with 18 samples.

Results

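The synaptic vesicle release machinery was followed as 9 genes, SNAP25, STX1A, VAMP2, SYT1, CPLX2, RAB3A, SYN1, SYP and SV2A, of 11963 genes that have a probe set of their own on the array. Their members are all 13 probe sets that the platform's annotation assigns to exactly 1 of these genes: 3 for VAMP2, 2 each for SNAP25 and SYT1, and 1 for each other gene. RNA came from SH-SY5Y, a human neuroblastoma cell line with neuron-like properties, and was read on 18 expression arrays. Control flasks were untreated and sampled at 3, 24 and 48 h, and exposed flasks had 5 ppm of sarin, an organophosphate that inhibits acetylcholinesterase, for 3, 24 or 48 h, with 3 arrays in each of the 6 groups. The labels name 6 flasks beside the 3 arrays of a group and do not tie arrays to flasks, so p-values measure the spread between arrays, which may be technical.

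A nerve terminal releases transmitter when a vesicle SNARE, VAMP2, zippers with the plasma membrane SNAREs, STX1A and SNAP25, and pulls the membranes together. Synaptotagmin 1 (SYT1) is the calcium sensor that triggers this step, complexin (CPLX2) holds and then assists the SNARE complex, the small GTPase RAB3A brings vesicles to the release site, and synapsin (SYN1) ties vesicles into a reserve pool. Synaptophysin (SYP) and SV2A are proteins of the vesicle membrane itself. SH-SY5Y cells release catecholamines and are widely used as a model of this process, although they divide and come from a tumour.

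Upstream sequences are shown for 3 members: SYT1, the member with both probe sets lower at 48 h, SYN1, a textbook target of the neuronal repressor REST, and RAB3A, whose window held more CRE core letters than any other member's. Each is the 250 bases before a RefSeq start site, 5′ to 3′ on the gene's strand, in build GRCh38.p14. Capitals mark CCAAT (read on either strand) in SYT1, at chr12:78864524-78864773 on the plus strand. In SYN1, at chrX:47619858-47620107 on the minus strand, they mark the REST site RE1, searched as these letters with a 2-base spacer that may be any base, and the cyclic AMP response element TGACGTCA (CRE). In RAB3A, at chr19:18204043-18204292 on the minus strand, they mark TGACG, the CRE core, which reads there on the opposite strand as CGTCA.
SYT1: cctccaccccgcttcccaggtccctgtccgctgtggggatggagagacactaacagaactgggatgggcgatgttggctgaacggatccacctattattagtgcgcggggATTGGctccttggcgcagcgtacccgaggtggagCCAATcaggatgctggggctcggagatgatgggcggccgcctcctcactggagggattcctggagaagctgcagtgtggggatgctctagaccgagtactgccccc
SYN1: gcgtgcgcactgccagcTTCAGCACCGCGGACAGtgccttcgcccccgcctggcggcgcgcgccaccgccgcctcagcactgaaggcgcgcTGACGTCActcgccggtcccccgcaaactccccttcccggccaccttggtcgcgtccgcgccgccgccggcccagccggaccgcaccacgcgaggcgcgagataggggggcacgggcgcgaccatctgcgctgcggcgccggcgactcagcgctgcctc
RAB3A: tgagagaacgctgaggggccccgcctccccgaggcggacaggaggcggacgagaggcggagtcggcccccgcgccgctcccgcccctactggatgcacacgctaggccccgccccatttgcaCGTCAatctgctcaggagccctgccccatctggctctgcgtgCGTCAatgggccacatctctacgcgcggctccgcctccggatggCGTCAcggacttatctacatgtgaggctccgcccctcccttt

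These and other motifs, 6 in all, were searched on both strands in windows running from 250 bases before to 50 after each start, and 8 of the 9 genes had a window. The RE1 letters, at position -233 of SYN1, were in 5 of 35116 windows (0.0142%), and SYN1 was the 1 member gene with them. The CRE of SYN1, at -159, was in 1.85% of windows. The CRE core, which also lies inside the full CRE, was in 24.6% of windows and in 3 member genes, RAB3A, SYN1 and VAMP2. SYT1 held CCAAT at -140 and -106, a motif of 34.6% of windows found in no other member. The GC box GGGCGG was in 45.0% of windows and in 5 member genes, RAB3A, STX1A, SYP, SYT1 and VAMP2, and TATAAA was in 11.5% of windows and in 0 of the 8. These matches describe letters and were not read as bound sites.

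The deposited signal of a probe set is an intensity on a linear scale, and differences are given in log2(signal + 16) units with their standard error, which understates changes of dim probe sets. The background level of an array was set at the 90th percentile of its 27 probe sets for bacterial transcripts that are not spiked in. On the 15 arrays other than sarin at 48 h it lay between 97.0 and 182.9, and 9 of the 13 member probe sets were above it on all 15. The exceptions were CPLX2, above on 2 of 15, SYN1, on 8, RAB3A, on 11, and the VAMP2 probe set 214792_x_at, on 14. Of 13 noradrenergic markers of this line with a probe set, 12 were above background on all 15 arrays, while TH, which makes the dopamine precursor, was above it on none.

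The 3 arrays of sarin at 48 h stood apart from the other 15, and each result at 48 h is given with that in view. Their background level was 410.7 to 443.2. Their median signal was 534.5 to 551.6, against 290.2 to 413.9 elsewhere. The ratio of 3′ to 5′ signal, which rises when RNA or its labelled copy is short, was 2.15 to 2.3 for GAPDH against 0.696 to 1.17, and 3.68 to 4.67 for ACTB against 0.79 to 1.64. Log2 signals over all probe sets correlated at 0.664 to 0.757 between these 3 arrays and the others, and at 0.909 to 0.965 among the others, a description over probe sets that share the arrays. Sarin at 48 h and these values occur on the same arrays and cannot be told apart.

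**Figure D1:**
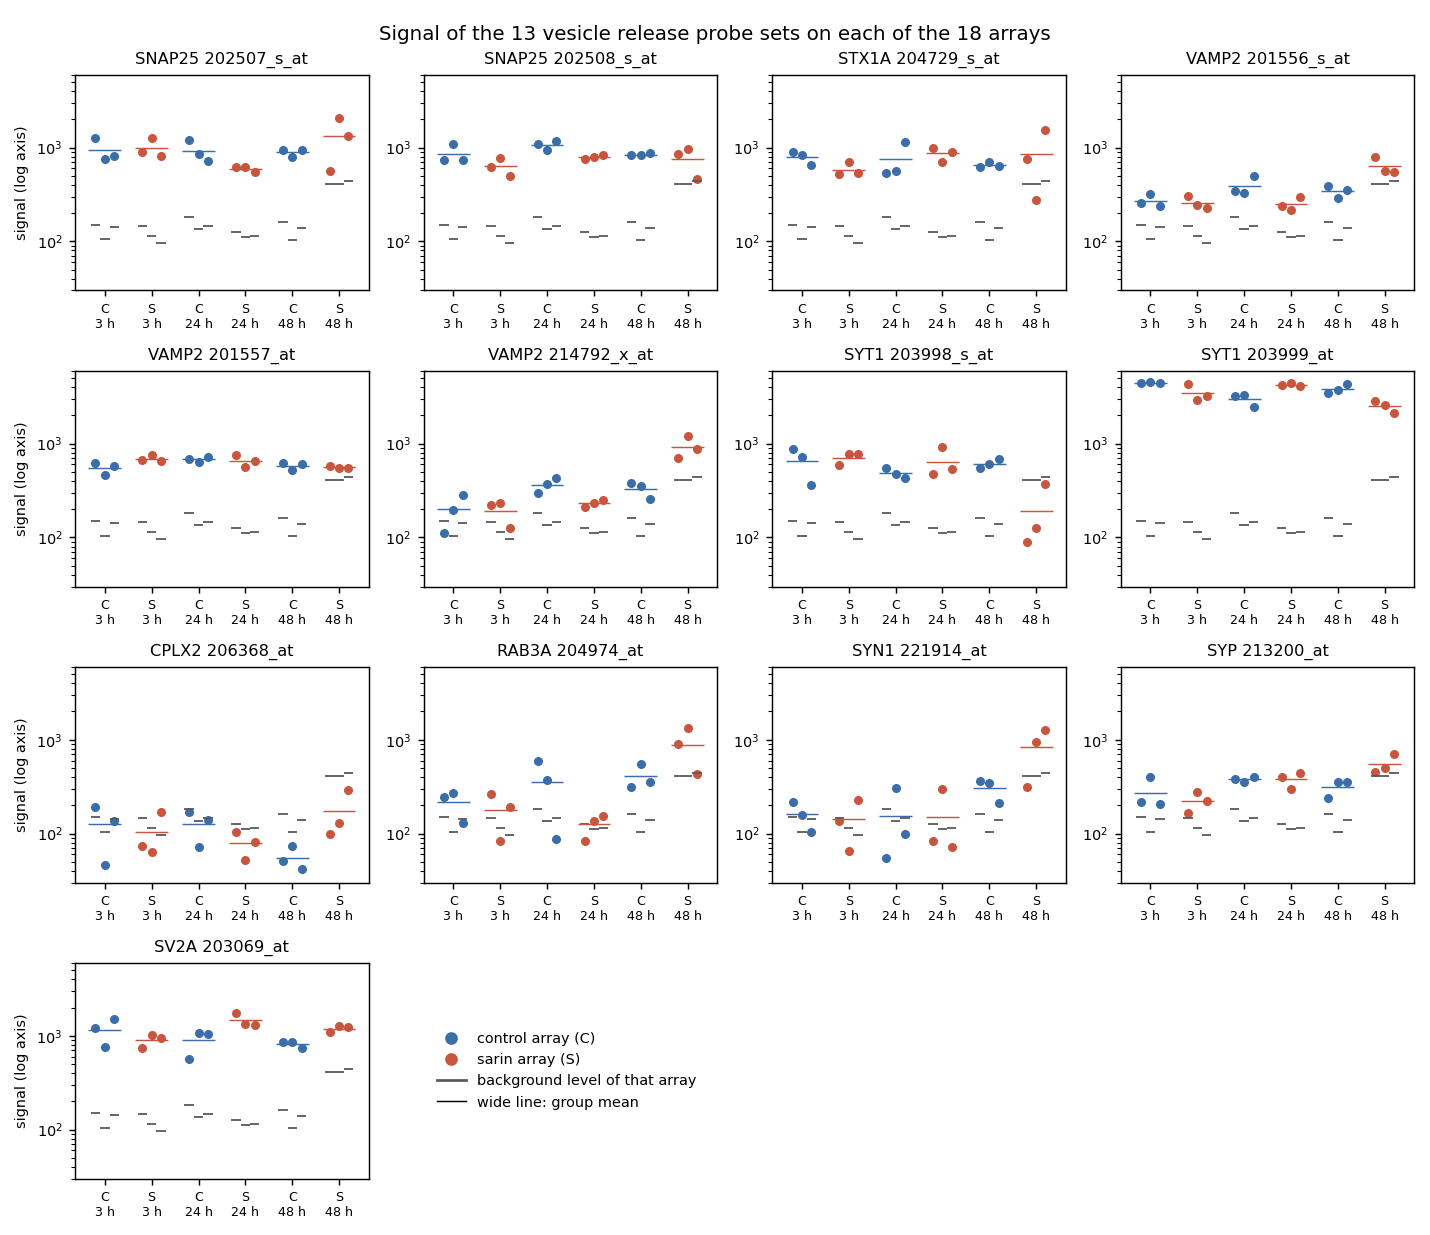
Signal on a log axis for each member probe set, with 1 point per array, blue for control and red for sarin, at 3, 24 and 48 h; short grey lines give each array's own background level and wide lines the group mean. The background lines of the 3 arrays of sarin at 48 h lie between 410.7 and 443.2, and all 3 SYT1 203998_s_at points there fall below them.

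SYT1 (synaptotagmin 1, chr12:78863982-79452008) had the brighter of its 2 probe sets, 203999_at, well above background on all 18 arrays. After 3 h it read 4444, 4500 and 4377 in control cells and 4300, 2915 and 3205 with sarin. After 24 h it read 3237, 3270 and 2453 in control cells and 4175, 4480 and 4085 with sarin. After 48 h it read 3478, 3772 and 4298 in control cells and 2828, 2570 and 2129 with sarin. The groups did not overlap at any of the 3 times: sarin arrays were all lower at 3 h, all higher at 24 h and all lower at 48 h. Ordered by mean signal with its SD (n = 3), the groups ran from control at 3 h (4440 ± 61.6) through sarin at 24 h (4247 ± 207), control at 48 h (3849 ± 416), sarin at 3 h (3473 ± 730) and control at 24 h (2987 ± 463) to sarin at 48 h (2509 ± 354). Each neighbour in that order overlapped the next.

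The fall of SYT1 203999_at at 48 h passed the test and the other 2 differences did not. Its log2 difference was -0.37 ± 0.16 at 3 h (limma adjusted p = 0.502) and 0.52 ± 0.16 at 24 h (1.43-fold higher, 95% interval 0.19 to 0.84, adjusted p = 0.0758). At 48 h it was -0.62 ± 0.16 (1.54-fold lower, adjusted p = 0.00237), and quantile normalization took that to -0.22 with an adjusted p of 0.296. Its sign stayed negative at 48 h under each scaling tried.

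Where the 24 h arrays of SYT1 were set beside control cells of the other times, most of the difference went. Control cells at 24 h were lower than at 3 h by a log2 change of -0.58 ± 0.16 (limma adjusted p = 0.0474), and the 3 arrays of each time did not overlap. This was the 1 member probe set called among control cells at 24 h against 3 h, where 3.27% of all 22215 probe sets were called. The call was lost with quantile normalization (-0.42, adjusted p = 0.266). With each of the 18 arrays left out in turn it was lost 13 times, and kept without sarin at 3 h replicate 1 or 2 or any 1 array of sarin at 48 h, over adjusted p of 0.0324 to 0.175. Against control cells of 3 and 48 h, sarin at 24 h gave a log2 difference of 0.04 (adjusted p = 0.925). The 24 h difference passed the threshold with array weights (0.52, adjusted p = 0.0167) and with arrays centred on their median (0.81, adjusted p = 0.0035). It also passed with the 6 arrays of that time alone (0.52, adjusted p = 0.0421) and over 1 probe set per gene in the upper 60% by level (0.52, adjusted p = 0.0442).

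The other SYT1 probe set, 203998_s_at, fell at 48 h to below the background level. Control cells at 48 h read 544, 608 and 685, and cells with sarin 88.4, 125 and 367. The highest sarin array lay below the lowest control array, and none of the 3 was above its own background level while all 3 controls were. The log2 difference was -1.81 ± 0.39 (limma adjusted p = 7.23e-04), and, counted against the lowest level that could be measured on the sarin arrays, the signal was at least 1.43-fold lower. At 3 h (0.20 ± 0.39, adjusted p = 0.926) and 24 h (0.34 ± 0.39, adjusted p = 0.685) the arrays of the groups overlapped. Both SYT1 probe sets were lower at 48 h, but over the 15 other arrays their log2 signals correlated at only 0.24, a description of arrays that share 1 scaling.

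SNAP25 (chr20:10218830-10307418), the palmitoylated SNARE that gives 2 helices to the complex, had no difference past the threshold at any time on either of its 2 probe sets. At 24 h 202507_s_at read 1207, 862 and 717 in control cells and 627, 619 and 547 with sarin. There 202508_s_at read 1090, 933 and 1163 in control cells and 746, 786 and 841 with sarin. On both, every sarin array was below every control array, with log2 differences of -0.59 ± 0.33 (limma adjusted p = 0.352) and -0.41 ± 0.24 (adjusted p = 0.367). At 3 h the differences were 0.08 ± 0.33 and -0.41 ± 0.24, with overlapping arrays. At 48 h 202507_s_at ran from 563 to 2077 with sarin, against 798 to 949 in control cells, and its difference of 0.38 ± 0.33 (adjusted p = 0.331) had 1 sarin array below and 2 above all the controls. Without the low array, sarin 48 h replicate 1, it was 0.89 (adjusted p = 0.00826), and with spike-in scaling -1.63 (adjusted p = 9.75e-05). The log2 signals of the 2 probe sets had a correlation of -0.01 over the 15 arrays other than sarin at 48 h.

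STX1A (chr7:73699210-73719669), syntaxin 1A, which anchors the complex in the plasma membrane, showed overlapping arrays at all 3 times. Its signal was 657 to 888 in control cells at 3 h and 521 to 699 with sarin. At 24 h it was 542 to 1154 against 707 to 988, and at 48 h 613 to 696 against 278 to 1533. Log2 differences were -0.43 ± 0.40, 0.28 ± 0.40 and 0.09 ± 0.40, with limma adjusted p of 0.801, 0.76 and 0.856. The sarin arrays at 48 h spanned a wider range than any other group, and 1 of the 3 was not above background.

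VAMP2 (chr17:8159147-8162948), the vesicle SNARE also called synaptobrevin 2, gave different readings on its 3 probe sets. The probe set 214792_x_at, whose suffix marks probes that can bind related transcripts, read 299, 368 and 426 in control cells at 24 h and 209, 234 and 248 with sarin. At 48 h it read 376, 352 and 258 in control cells and 707, 1202 and 878 with sarin. The arrays did not overlap at either time, with sarin lower at 24 h (-0.62 ± 0.35, limma adjusted p = 0.35) and higher at 48 h (1.44 ± 0.35, 2.71-fold, adjusted p = 0.00159). That 48 h difference turned to -0.56 (adjusted p = 0.349) when arrays were scaled to their spike-ins.

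VAMP2 201556_s_at had the same pattern at a smaller size. It read 344, 330 and 500 in control cells and 237, 214 and 296 with sarin at 24 h. At 48 h it read 390, 291 and 352 in control cells and 790, 563 and 550 with sarin. Sarin arrays were all below the controls at 24 h (-0.61 ± 0.28, limma adjusted p = 0.244) and all above them at 48 h (0.84 ± 0.28, 1.79-fold, adjusted p = 0.0135). The 48 h call was lost with quantile normalization (0.32, adjusted p = 0.369), with median centring (0.28, adjusted p = 0.405), and without control 48 h replicate 2 or sarin 48 h replicate 1 (adjusted p up to 0.063), and turned to -1.12 (adjusted p = 0.0275) with spike-in scaling. The third probe set, 201557_at, kept within 459 to 751 on the 15 arrays and within 544 to 583 on the 3 arrays of sarin at 48 h. Its differences were 0.33 ± 0.18, -0.07 ± 0.18 and -0.05 ± 0.18 at 3, 24 and 48 h (adjusted p of 0.637, 0.882 and 0.811), and the arrays failed to overlap only at 3 h, where sarin was higher. Over 15 arrays the 2 probe sets that moved correlated at 0.64, and 201557_at correlated with them at 0.05 and 0.04. With sarin at 48 h 201557_at stood 1.24 to 1.41 times over the arrays' own background level, against 3.85 to 5.1 times for the controls. For 201556_s_at these values were 1.24 to 1.91 and 2.42 to 2.82, and for 214792_x_at 1.71 to 2.93 and 1.84 to 3.41.

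SV2A (chr1:149903318-149917844), a vesicle glycoprotein that binds the drug levetiracetam, read 562, 1066 and 1049 in control cells at 24 h and 1728, 1350 and 1302 with sarin. All 3 sarin arrays were above all 3 controls, at a log2 difference of 0.75 ± 0.25 (1.68-fold, limma adjusted p = 0.104). At 48 h it read 853, 865 and 744 in control cells and 1084, 1260 and 1242 with sarin, again with no overlap (0.53 ± 0.25, adjusted p = 0.0666). At 3 h the arrays overlapped (-0.32 ± 0.25, adjusted p = 0.757). The 24 h difference passed with array weights (0.73, adjusted p = 0.0277) and with arrays centred on their median (1.03, adjusted p = 0.0203), and was 0.59 (adjusted p = 0.125) against control cells of 3 and 48 h. The 48 h difference passed with the 6 arrays of that time alone (0.53, adjusted p = 0.0292) and without control 3 h replicate 2 or control 24 h replicate 1 (adjusted p down to 0.0352), and turned to -1.48 (adjusted p = 0.00111) with spike-in scaling. By mean signal (SD, n = 3) sarin at 24 h was first (1460 ± 233), followed by sarin at 48 h (1195 ± 97.2), control at 3 h (1161 ± 376), sarin at 3 h (903 ± 145), control at 24 h (892 ± 286) and control at 48 h (821 ± 67.1). The first and second groups did not overlap, and all later neighbours did.

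SYP (chrX:49187815-49200193), synaptophysin, an abundant protein of the vesicle membrane, changed at 48 h alone in the fit. It read 242, 350 and 357 in control cells at 48 h and 450, 496 and 705 with sarin. All sarin arrays were higher (0.76 ± 0.31, 1.70-fold, limma adjusted p = 0.0416), and they stood 1.09 to 1.59 times over their own background level, against 1.5 to 3.39 times for the controls. The call was lost with quantile normalization (0.22, adjusted p = 0.608), median centring (0.20, adjusted p = 0.625), array weights (0.68, adjusted p = 0.093) and the 6 arrays of 48 h alone (0.76, adjusted p = 0.073), and turned to -1.19 (adjusted p = 0.0224) with spike-in scaling. It was also lost without sarin 24 h replicate 1, without any 1 control array of 48 h, and without sarin 48 h replicate 2 or 3 (adjusted p up to 0.155). At 3 h (-0.24 ± 0.31) and 24 h (-0.02 ± 0.31) the arrays overlapped, with adjusted p of 0.87 and 0.985.

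CPLX2, RAB3A and SYN1 were the dim members, and their values lay close to background. CPLX2 (complexin 2, chr5:175796533-175884021) was above background on none of the 6 arrays at 48 h, so no fold is given, although its log2 difference of 1.30 ± 0.52 passed the test (limma adjusted p = 0.0353) and turned to -0.40 (adjusted p = 0.557) with spike-in scaling. That call was lost with quantile normalization (0.47, adjusted p = 0.465), median centring (0.74, adjusted p = 0.241), array weights (1.28, adjusted p = 0.0698) and control cells of the other times (0.40, adjusted p = 0.426), and without control 48 h replicate 1 or 3 or sarin 48 h replicate 3 (adjusted p up to 0.17). RAB3A (chr19:18196784-18204042) ranged from 315 to 556 in control cells and from 431 to 1318 with sarin at 48 h (0.99 ± 0.57, adjusted p = 0.135), and from 88.0 to 587 against 84.0 to 155 at 24 h (-1.08 ± 0.57, adjusted p = 0.318). SYN1 (chrX:47571901-47619857), whose upstream bases are printed above, ranged from 214 to 363 in control cells and from 310 to 1258 with sarin at 48 h (1.23 ± 0.63, adjusted p = 0.0947). At 24 h it ran from 54.5 to 308 against 72.4 to 295 (0.02 ± 0.63, adjusted p = 0.992). The arrays of RAB3A and SYN1 overlapped between sarin and control at all 3 times. Without sarin 48 h replicate 1, its low array, SYN1 passed at 48 h (1.82, adjusted p = 0.0223). Against control cells of 3 and 24 h both passed at 48 h, RAB3A at 1.68 (adjusted p = 0.00578) and SYN1 at 2.27 (adjusted p = 0.00132), and with spike-in scaling their signs turned, to -0.99 (adjusted p = 0.136) and -0.74 (adjusted p = 0.345).

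Counted over the 13 member probe sets, no difference passed at 3 or 24 h, and 6 passed at 48 h. At 3 h, 0% of all 22215 probe sets were called (limma, adjusted p under 0.05) and 8.74% had an unadjusted p under 0.05, as did 1 member probe set. There 2 members had arrays that did not overlap, SYT1 203999_at lower and VAMP2 201557_at higher, beside 13% of all probe sets. At 24 h 3.37% of all probe sets were called, 18.8% had an unadjusted p under 0.05 and 32.2% did not overlap, beside 0, 3 and 6 of the 13 members. Members' median log2 difference at 24 h was -0.07, with -0.16 over all probe sets. With array weights 2 members passed at 24 h, beside 10.7% of all probe sets. With arrays centred on their median 2 passed, beside 6.43%, and with the 6 arrays of that time alone 1, beside 7.22%. In bulk RNA, fewer cells that express a gene and less of its RNA per cell cannot be told apart.

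At 48 h, 4 member probe sets were called higher (VAMP2 201556_s_at and 214792_x_at, CPLX2 and SYP) and 2 lower (both of SYT1), while 63.2% of all probe sets were called, 41.7% higher and 21.5% lower. The members' share was no higher than the share of all probe sets. Their median log2 difference was 0.53, and that of all probe sets was 0.62. Measured from that shift, the differences were -2.43 and -1.24 for SYT1, 0.82, 0.22 and -0.67 for VAMP2, 0.14 for SYP and 0.68 for CPLX2. Of the 13 members 7 had arrays that did not overlap, 5 higher and 2 lower, beside 64.9% of all probe sets (43.5% higher, 21.4% lower).

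The direction of most members at 48 h depended on how arrays were put on 1 scale. The median of all probe sets was 0.13 with quantile normalization, 0.06 with arrays centred on their median and -1.21 with scaling to the spike-ins. Calls over all probe sets were 5588 higher and 5630 lower with quantile normalization, 4813 and 6711 with median centring, and 158 and 11754 with spike-in scaling. All 13 member probe sets were negative under spike-in scaling. VAMP2 214792_x_at stayed higher and called with quantile normalization (1.08, limma adjusted p = 0.0163) and median centring (0.88, adjusted p = 0.0355). SNAP25 202508_s_at and VAMP2 201557_at were called lower under both of these (-0.66 and -0.77 for the first, -0.62 and -0.62 for the second), with adjusted p of 0.0423, 0.0152, 0.00999 and 0.0105. SYT1 203998_s_at was lower and called under all 4 scalings, from -1.81 to -3.52.

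**Figure D2:**
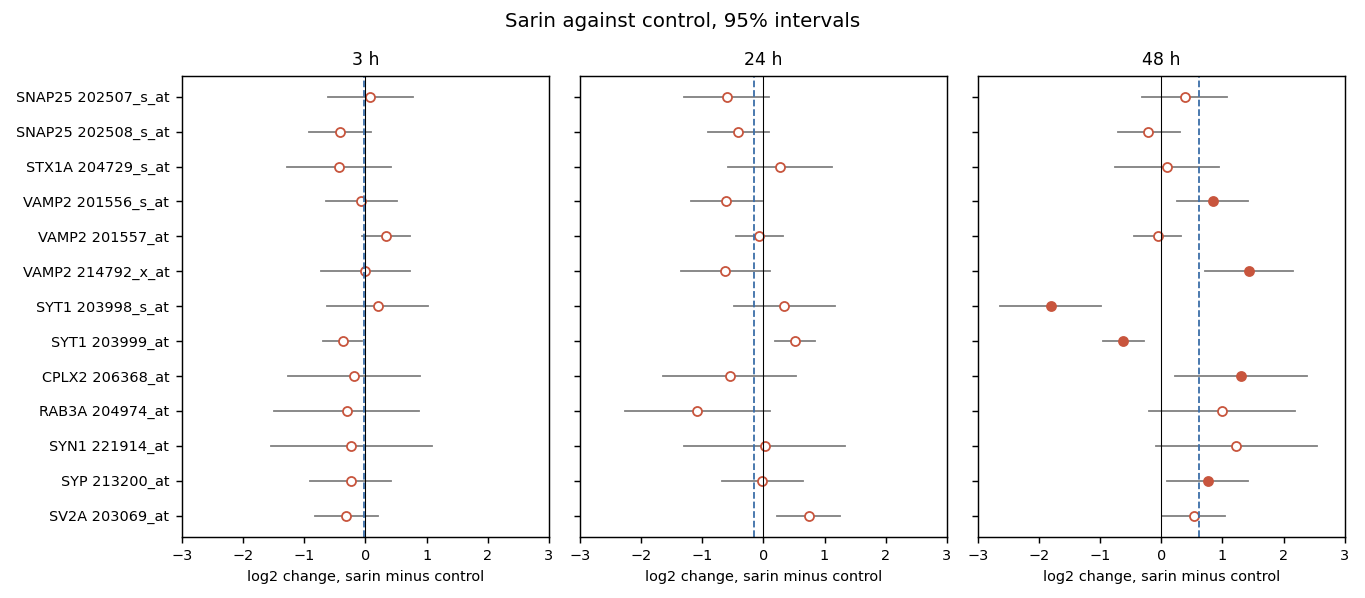
Log2 difference between sarin and control (points, with 95% intervals as bars) for each member probe set at 3, 24 and 48 h; filled points have an adjusted p under 0.05, and the dashed line is the median over all probe sets. No point is filled at 3 or 24 h, and at 48 h the 2 SYT1 points lie to the left of a dashed line at 0.62.

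**Figure D3:**
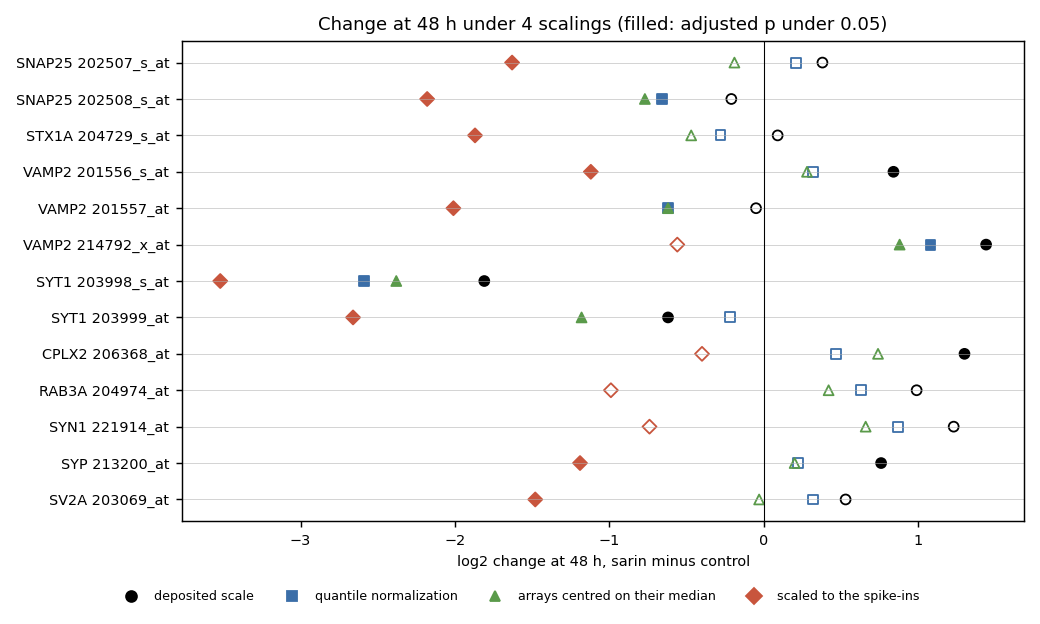
Log2 difference at 48 h (horizontal axis) for each member probe set under 4 ways of scaling the arrays, with filled markers where the adjusted p is under 0.05. The 13 spike-in values (diamonds) are all below 0, and SYT1 203998_s_at is filled under all 4, from -1.81 to -3.52.

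The sarin difference itself was compared between times as a difference of differences, each using 12 arrays, and any pair of these shares arrays. Between 24 and 3 h no member passed, beside 0.297% of all probe sets, 2 of 13 had an unadjusted p under 0.05, beside 9.95%, and the smallest p belonged to SYT1 203999_at at 0.89 ± 0.22 (limma adjusted p = 0.111), followed by SV2A at 1.06 ± 0.35 (adjusted p = 0.261). Between 48 and 3 h 2 of 13 passed, beside 48.8% of all probe sets. These were SYT1 203998_s_at (-2.01 ± 0.56, adjusted p = 0.00674) and VAMP2 214792_x_at (1.44 ± 0.49, adjusted p = 0.0215). The brighter SYT1 probe set, 203999_at, gave -0.25 ± 0.22 there (adjusted p = 0.363). Between 48 and 24 h 6 of 13 passed, beside 55.4%. The SYT1 probe sets gave -2.16 ± 0.56 (adjusted p = 0.00357) and -1.14 ± 0.22 (adjusted p = 3.97e-04). VAMP2 gave 2.06 ± 0.49 (adjusted p = 0.00194) for 214792_x_at and 1.45 ± 0.39 (adjusted p = 0.00487) for 201556_s_at, RAB3A 2.07 ± 0.80 (adjusted p = 0.0363) and CPLX2 1.85 ± 0.73 (adjusted p = 0.0385). With each of the 18 arrays left out in turn, the RAB3A call was lost 8 times (adjusted p up to 0.113) and the CPLX2 call 7 times (up to 0.105), each time for an array of 24 or 48 h. The VAMP2 214792_x_at call between 48 and 3 h was lost 4 times (up to 0.064), without control 3 h replicate 3, sarin 3 h replicate 3, control 48 h replicate 3 or sarin 48 h replicate 2. It was also lost with quantile normalization (1.01, adjusted p = 0.117) and median centring (0.81, adjusted p = 0.18). Between 48 and 24 h both of these scalings ended the calls of VAMP2 201556_s_at (0.63 and 0.60, adjusted p of 0.218 and 0.222), RAB3A (1.49 and 1.21, 0.166 and 0.228) and CPLX2 (0.76 and 1.0, 0.425 and 0.281).

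Control cells also differed between times, with few calls. Their log2 differences reached 1.19 ± 0.63 for SYN1 and -0.95 ± 0.52 for CPLX2 at 48 h against 24 h (limma adjusted p of 0.602 and 0.625), and 0.89 ± 0.57 for RAB3A at 48 h against 3 h (adjusted p = 0.624), where the arrays did not overlap. Apart from SYT1 203999_at, no member was called at 24 h against 3 h, and none was called at 48 h against 3 h or at 48 h against 24 h, where 0.099% and 0.189% of all probe sets were. At an unadjusted p under 0.05 there was 1 member in each of the last 2 comparisons, VAMP2 214792_x_at and SYT1 203999_at, beside 10.7% and 8.98% of all probe sets. All 3 VAMP2 probe sets were higher at 24 h than at 3 h on every array, by 0.90 ± 0.35 (limma adjusted p = 0.155) for 214792_x_at, 0.48 ± 0.28 (adjusted p = 0.346) for 201556_s_at and 0.30 ± 0.18 (adjusted p = 0.378) for 201557_at, while all probe sets had a median of 0.18 and 17% of them did not overlap with the later time higher. On the controls at 24 h the ACTB ratio of 3′ to 5′ signal was 1.46 to 1.5, against 0.79 to 1.14 at 3 h, and the median signal 397.0 to 413.9 against 310.2 to 339.2. Their part in the SYT1 and VAMP2 differences was not tested.

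Quality values and cell markers also differed between sarin and control. At 3 h the summed signal of 13 noradrenergic markers was 88582 to 90954 with sarin and 94338 to 114032 in control cells, without overlap. The sums of the substrate-adherent and glial markers overlapped at 3 h. At 24 h the median signal was 314.9 to 345.3 with sarin and 397.0 to 413.9 in control cells, and the GAPDH ratio 1.05 to 1.17 against 0.811 to 0.941. The noradrenergic sum was 115607 to 116850 with sarin and 102025 to 113642 in control cells, and that of 12 substrate-adherent markers 38958 to 40223 against 59322 to 61089. The 6 glial markers with a probe set summed to 898 to 1136 against 1293 to 1471, and 1 of them was above background on all 15 arrays. At 48 h these sums were 54227 to 63829 against 97718 to 101903, 23530 to 25513 against 61166 to 81488, and 3259 to 3876 against 1000 to 1176. Brighter markers weigh more in a sum, and single markers moved in both directions. At 24 h 2 noradrenergic markers were called higher and 2 lower, 0 and 3 substrate-adherent, and 0 and 0 glial. At 48 h these counts were 1 and 6, 4 and 4, and 4 and 0. Over all 11963 genes they were 209 and 244 at 24 h, and 4921 and 2856 at 48 h. The background level at 48 h was 410.7 to 443.2 with sarin and 103.1 to 161.1 in control cells. Its part in the sum of the dim glial markers was not tested. The part of these values in the member differences was not tested.

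Over the 15 arrays apart from sarin at 48 h, genes with the most similar profile were found for the 6 members with a probe set above background on all of them, by Pearson correlation among 11734 probe sets. For SYT1 203999_at they were TMCO1 (0.82), ASAH1 (0.81) and GSTZ1 (0.81). SNAP25 202507_s_at was followed by NQO1 (0.88), ACOT7 (0.85) and GGA2 (0.84), and VAMP2 201557_at by PPFIA3 (0.84), CKB (0.83) and MYO9B (0.83). STX1A gave CLASP1 (0.79), ITGB1BP1 (0.74) and SIK3 (0.73), SYP gave RNFT2 (0.92), SUPT7L (0.91) and CAPZA1 (0.88), and SV2A gave PPP6C (0.93), XRCC5 (0.91) and WDR70 (0.90). With all 18 arrays the SYT1 values were 0.81, 0.81 and 0.78, that of SV2A with PPP6C was 0.86 and that of VAMP2 with CKB 0.73. That of SNAP25 with NQO1 was 0.22 and that of SV2A with XRCC5 0.21. The remaining values ran from -0.13, for VAMP2 with MYO9B, to 0.56, for SYP with RNFT2. These arrays share groups and 1 scaling, so the values describe likeness only.

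The wider vesicle cycle was read from 136 listed genes, of which 111 had a probe set, 1 taken per gene. None passed at 3 h, where 7 of 111 had an unadjusted p under 0.05, beside 1044 of 11963 genes. The smallest p by role included SYT13, a synaptotagmin without calcium binding, at -1.07 ± 0.40 (limma adjusted p = 0.454), and CLTC, the clathrin heavy chain, at -0.40 ± 0.14 (adjusted p = 0.447). The smallest p in the other roles belonged to SYPL1 (0.55 ± 0.21), RAB3B (0.68 ± 0.30), SLC18A1 (-0.35 ± 0.14), LIN7A (1.12 ± 0.57), STXBP3 (-0.47 ± 0.25), VAMP7 (-0.33 ± 0.18) and HDAC1 (0.32 ± 0.17), with adjusted p of 0.46 to 0.621. At 24 h 0 were higher and 2 lower of 111, while 209 were higher and 244 lower of 11963 genes. SLC18A1, the vesicular monoamine transporter of chromaffin-type cells, read 3278, 4144 and 4101 in control cells and 2509, 2778 and 2438 with sarin (-0.57 ± 0.14, adjusted p = 0.0298). SH3GL3, endophilin A3 of vesicle endocytosis, read 955, 1058 and 824 in control cells and 245, 484 and 605 with sarin (-1.15 ± 0.31, adjusted p = 0.0475). The arrays of both genes did not overlap. A second SH3GL3 probe set was lower too (-1.06 ± 0.28, adjusted p = 0.0431), and a second probe set of CLTA, a clathrin light chain, was higher (0.73 ± 0.17, adjusted p = 0.0274). With arrays centred on their median 6 of the 111 genes were higher and 0 lower, and the 2 named genes gave -0.28 (adjusted p = 0.324) for SLC18A1 and -0.86 (adjusted p = 0.125) for SH3GL3. With quantile normalization SLC18A1 alone of the 111 was called (-0.64, adjusted p = 0.0139), and with spike-in scaling none was, SLC18A1 giving -0.53 (adjusted p = 0.634).

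In roles with no call at 24 h the smallest p belonged to SYNGR3, a synaptogyrin of the vesicle membrane (-1.15 ± 0.35, limma adjusted p = 0.0738), RABAC1, a Rab acceptor (-0.50 ± 0.16, adjusted p = 0.0942), SYT13 (-1.18 ± 0.40, adjusted p = 0.109) and HDAC1, a deacetylase of the REST complex (0.51 ± 0.17, adjusted p = 0.109). For the others it belonged to the active zone scaffold CASK (0.47 ± 0.17, adjusted p = 0.132), to syntaxin 2 (STX2, -0.45 ± 0.18, adjusted p = 0.174) and to alpha-SNAP (NAPA, 0.47 ± 0.20, adjusted p = 0.212). None of these is a call. REST itself gave -0.10 ± 0.37, -0.46 ± 0.37 and -0.11 ± 0.37 at 3, 24 and 48 h, with adjusted p of 0.965, 0.53 and 0.806 on its brightest probe set. Its other 2 probe sets were dim and read differently. On a second probe set no control array and all 3 sarin arrays were above background at 48 h, at least 4.59-fold higher (limma adjusted p = 9.33e-04). The background level there was 410.7 to 443.2 with sarin and 103.1 to 161.1 in control cells, and its part was not tested. At 24 h that probe set had no sarin array and 2 control arrays above background. On the remaining one no control array and all 3 sarin arrays were above background at 24 h, at least 1.27-fold higher (limma adjusted p = 0.0905). At 48 h it was above background in neither group. At 3 and 24 h NSF gave -0.12 ± 0.20 and -0.16 ± 0.20 (adjusted p of 0.91 and 0.714), CADPS -0.69 ± 0.37 and -0.51 ± 0.37 (0.621 and 0.491) and UNC13A -0.32 ± 0.40 and 0.05 ± 0.40 (0.861 and 0.961).

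At 48 h 43 of 111 were higher and 30 lower, while 4921 and 2856 of 11963 genes were. Median log2 differences were 0.43 and 0.53. The 30 lower genes were also called lower with median centring and with spike-in scaling, and 29 of them with quantile normalization. Of the 43 higher genes 33 were called higher with quantile normalization, 26 with median centring and 0 with spike-in scaling, which called 73 of the 111 lower and turned the sign of 26. NSF, the ATPase that takes spent SNARE complexes apart, read 1094, 1508 and 1322 in control cells and 239, 244 and 230 with sarin. None of the 3 sarin arrays was above background, which puts the signal at least 3-fold lower (-2.37 ± 0.20, limma adjusted p = 1.51e-08). NAPA, its adaptor, gave -0.63 ± 0.20 (adjusted p = 0.0121), and TXLNA, a syntaxin-binding taxilin, gave -2.91 ± 0.25 (adjusted p = 1.78e-08), at least 1.87-fold lower, with no sarin array above background.

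By role, priming and active zone genes counted 13 higher and 3 lower of 21, the Rab3 and Rab27 cycle 7 and 2 of 12, vesicle membrane proteins 8 and 5 of 14, and calcium sensors 3 and 2 of 8. SNAREs counted 2 higher and 3 lower of 10, their regulators 2 and 3 of 7, endocytosis 7 and 9 of 30, transmitter transporters 1 and 1 of 5, and REST with its corepressors 0 and 2 of 4. Over all genes the counts were 4921 higher and 2856 lower of 11963. The role counts include dim genes. Of the 111 probe sets 75 were above background on all 15 arrays other than sarin at 48 h, and 19 were above it on no array of sarin at 48 h. Lower genes included the clathrin adaptors AP2M1 (-3.06 ± 0.34, limma adjusted p = 4.83e-07) and AP2S1 (-1.80 ± 0.15, adjusted p = 1.58e-08), SYNGR3 (-2.85 ± 0.35, adjusted p = 1.69e-06) and RABAC1 (-2.11 ± 0.16, adjusted p = 4.61e-09). HDAC1 gave -1.66 ± 0.17 (adjusted p = 2.01e-07). The plasma membrane syntaxins STX4 (-1.47 ± 0.31, adjusted p = 5.09e-04, at least 1.75-fold lower with no sarin array above background) and STX3 (-1.14 ± 0.30, adjusted p = 0.00286) were lower, and so was the SNARE VAMP3 (-1.04 ± 0.15, adjusted p = 1.4e-05). Higher genes included the sensor SYT5 (2.02 ± 0.32, adjusted p = 3.37e-05, and 0.04 with spike-in scaling), RAB3B (1.62 ± 0.30, adjusted p = 1.61e-04, and -0.36), the active zone scaffold ERC1 (1.40 ± 0.15, adjusted p = 3.87e-07, and -0.64) and the dynamin DNM1 (1.67 ± 0.20, adjusted p = 1.97e-06, and -0.38). The priming factors UNC13A (2.36 ± 0.40, adjusted p = 6.36e-05) and CADPS (1.17 ± 0.37, adjusted p = 0.0112) passed too, but UNC13A was above background on none of the 6 arrays, so no fold is given for it.

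The other genes with the smallest p in their role at 48 h are given as log2 differences with their SE, all at an adjusted p under 0.05 in limma. Among SNAREs, STX2 was higher (0.44 ± 0.18), and VAMP8 passed (1.73 ± 0.25) though no array of 48 h was above background for it. Among SNARE regulators STXBP6 (1.15 ± 0.29) and STXBP3 (0.82 ± 0.25) were higher. Among synaptotagmins SYT13 (1.74 ± 0.40) and SYT2 (2.0 ± 0.64) were higher, and SYT11 (-0.72 ± 0.30) lower. SYT17 passed (-1.22 ± 0.39) though no sarin array was above background for it. The sarin arrays had the higher background level, so no fold or direction is given for SYT17. In the Rab3 cycle the exchange factor RAB3IL1 (1.16 ± 0.25) and RAB3GAP1 (1.26 ± 0.27, on its brightest probe set) were higher and the dissociation inhibitor GDI2 lower (-1.42 ± 0.13). RAB3GAP1 also had dimmer probe sets with no sarin array and all 3 control arrays above background at 48 h. The background level was higher on the sarin arrays, so no fold or direction is given for these dimmer probe sets. At the active zone CADPS2 (1.41 ± 0.28) was higher, and LIN7C (-1.56 ± 0.25), the scaffold RIMS2 (-1.14 ± 0.26) and the liprin PPFIA1 (-1.16 ± 0.29) were lower. LIN7C and RIMS2 had no sarin array above background, which gives at least 1.65-fold and at least 1.32-fold lower signals.

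Vesicle membrane genes moved in both directions: SV2C (2.07 ± 0.31), SNCG (2.62 ± 0.41) and SCAMP5 (1.22 ± 0.19) were higher, and SYNGR2 (-1.92 ± 0.31) and SCAMP1 (-0.98 ± 0.17) lower. In endocytosis the epsin EPN1 (3.09 ± 0.46) and the dynamin DNM3 (2.03 ± 0.35) were higher and the clathrin heavy chain CLTC lower (-1.59 ± 0.14). EPN1 had no control array above background at 48 h, which gives a signal at least 5.84-fold higher. The background level was 410.7 to 443.2 on the sarin arrays and 103.1 to 161.1 on those controls. SNCG also had no control array above background, but only 1 sarin array was above it, so no fold is given for it. Of the transporters the glutamate carrier SLC17A7 was higher (2.03 ± 0.33) and SLC18A1 again lower (-0.77 ± 0.14), and of the REST corepressors RCOR1 was lower (-0.87 ± 0.20). As above, none of the higher genes was called higher with spike-in scaling.

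**Figure D4:**
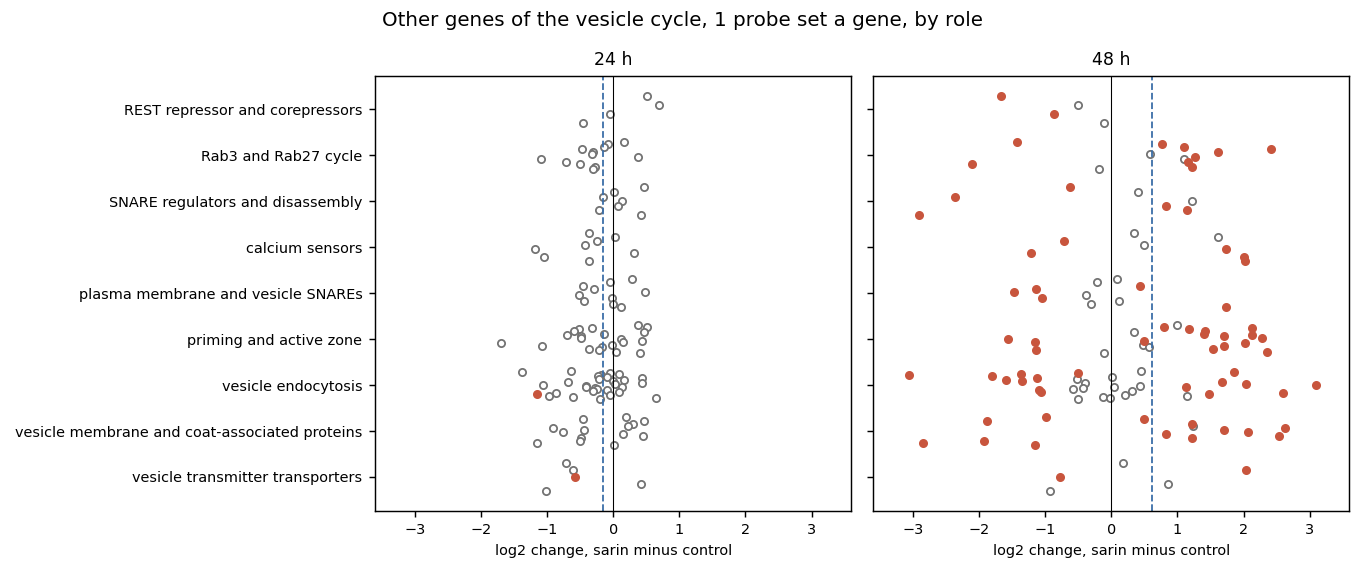
Log2 difference between sarin and control at 24 and 48 h for 111 other genes of the vesicle cycle, 1 point per gene and 1 row per role; filled points have an adjusted p under 0.05, and the dashed line is the median over all probe sets. At 24 h 2 points are filled, both to the left of 0, and at 48 h 43 are filled to the right and 30 to the left.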

How the data were processed

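Each array has 1 deposited column of linear signal intensity, which the authors computed with MAS5, per the submitters' processing notes (version and settings: not given in the sources used here). The trimmed mean signal of an array was 800.1 to 800.3, so the deposited intensity is scaled to 1 target. Of 22283 probe sets, 68 controls were left out and 22215 tested; 19065 have 1 gene symbol in the platform annotation. From the deposited intensity, log2(signal + 16) was computed here, and group means of all 18 arrays were fitted with limma 3.58.1 in R 4.3.3 (lmFit, then trended eBayes, with residual df of 12 and prior df of 6.73). All tests are two-sided, with Benjamini-Hochberg adjustment over 22215 probe sets and a threshold of 0.05. The number of arrays, 3 a group, limits the precision. The fit was tested on simulated data. No pair of arrays held identical values.

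The members and gene lists were chosen with earlier results of these data known. All member probe sets are named; other genes of the vesicle cycle are named by role, up to 3 of the smallest p in each direction among those called or the smallest where none passed, with NSF, UNC13A, CADPS and REST at each time. Other genes of that rule are not reported here. For lists, the probe set with the highest mean was taken per gene. Gene positions and upstream sequences are from RefSeq, GRCh38.p14. Alternatives were other pseudocounts, filters, normalizations and scaling to the bacterial and phage hybridization spike-ins, limma settings, subsets of arrays, a replicate block, control cells of other times and each array left out. A fit without the arrays of sarin at 48 h for the 24 h minus 3 h difference and for control cells was added after seeing the data.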

Additional observations from a re-analysis of the deposited data

Results flagged for a closer look

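For SYT1 the sarin difference was not the same at all times. On 203998_s_at it was lower at 48 h than at 3 h by a difference of -2.01 (limma adjusted p = 0.00674) and lower at 48 h than at 24 h by -2.16 (adjusted p = 0.00357). None of the 3 sarin arrays at 48 h was above background on that probe set. On 203999_at the difference between 48 and 24 h was -1.14 (adjusted p = 3.97e-04). Between 48 and 3 h it was -0.25 (adjusted p = 0.363) and did not pass. That value was 0.13 with quantile normalization (adjusted p = 0.695) and -0.87 with median centring (adjusted p = 0.003). Between 24 and 3 h it was 0.89 (adjusted p = 0.111), which did not pass, but the 3 sarin arrays were all below the controls at 3 h and all above them at 24 h.

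On 2 of the 3 VAMP2 probe sets the difference was higher at 48 h. On 214792_x_at it exceeded that at 3 h by 1.44 (limma adjusted p = 0.0215) and that at 24 h by 2.06 (adjusted p = 0.00194), and on 201556_s_at that at 24 h by 1.45 (adjusted p = 0.00487). The third, 201557_at, gave -0.38 against 3 h (adjusted p = 0.229) and 0.01 against 24 h (adjusted p = 0.967), and these became called with quantile normalization (-0.90 and -0.71, adjusted p of 0.0117 and 0.0392) and median centring (-1.0 and -0.84, adjusted p of 0.00534 and 0.0157). RAB3A gave 2.07 (adjusted p = 0.0363) and CPLX2 1.85 (adjusted p = 0.0385) between 48 and 24 h. Quantile normalization and median centring each ended the calls of RAB3A, CPLX2 and VAMP2 201556_s_at, and that of VAMP2 214792_x_at against 3 h. All of these except the 24 h minus 3 h value involve the 3 arrays of sarin at 48 h, whose background level and 3′ to 5′ ratios stand apart, and the part of those in the differences was not tested.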

How the results depend on the processing

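Member probe sets were recomputed 3000 times over the comparisons and alternatives: 2895 kept their side of the threshold, 63 lost a call, 33 gained one and 9 changed sign with a call on either side, while 121 of those kept were uncalled with the other sign. Scaling to spike-ins turned 9 member probe sets at 48 h, RAB3A (-0.99) and SYN1 (-0.74) with no call on either side and 7 with one: VAMP2 201556_s_at -1.12 and 214792_x_at -0.56, SNAP25 202507_s_at -1.63, SV2A -1.48, STX1A -1.87, CPLX2 -0.40 and SYP -1.19. VAMP2 201557_at between 48 and 24 h turned to -0.71 with quantile normalization and -0.84 with median centring. The cause was not tested.

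The number of members called at 24 h was 0 in the fit, beside 3.37% of all probe sets. It was 1 over 1 probe set per gene in the upper 60% by level, beside 8.67% of those tested. With median centring it was 2, beside 6.43%, with array weights 2, beside 10.7%, and with the 6 arrays of that time 1, beside 7.22%. At 48 h the 6 became 1 over 1 probe set per gene, where fewer are tested. The 0 between 24 and 3 h became 1 with median centring, beside 0.383% of all probe sets. The 2 between 48 and 3 h became 4 in the upper 60% by level, beside 57.5% of those tested. With arrays left out they became 1 to 4, beside 42.9% to 49.5% of all probe sets. The 1 among control cells at 24 h against 3 h became 0 with quantile normalization, beside 1.23% of all probe sets. With arrays left out it became 0 to 1, beside 1.11% to 3.86%.

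Over all probe sets, sarin at 3 h had 0 calls, 1 with a pseudocount of 64, 1 with no trend, 1909 against control cells of the other times, and 0 to 1 with arrays left out. At 24 h the 749 became 424 with quantile normalization, 1429 with median centring (1292 higher, 137 lower), 39 with spike-ins, 410 with no trend, 2384 with array weights, 1603 with 6 arrays, 1258 without the 48 h sarin arrays, 1345 against control cells of the other times, and 228 to 1042 with arrays left out. The 14041 at 48 h, 63.2% of those tested, became 9172 of 13329 in the upper 60% by level (68.8%). Over 1 probe set per gene in the upper 60% they became 5075 of 7178 (70.7%). The 66 between 24 and 3 h became 43 with quantile normalization, 172 without the 48 h sarin arrays and 17 to 128 with arrays left out. Among control cells, 727 at 24 h against 3 h became 273 (quantile), 1614 (median centring, 186 higher and 1428 lower), 1115 (without the 48 h sarin arrays) and 246 to 858 (arrays left out). The 22 at 48 h against 3 h became 44 in the upper 60%, 7 (quantile), 56 (median centring), 52 (without the 48 h sarin arrays) and 6 to 103 (arrays left out). The 42 at 48 h against 24 h became 64 in the upper 60% and 5 to 83 with arrays left out.

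With the replicate number as a block (replicate block), 303 probe sets were called at 24 h and 8 between 24 and 3 h. The counts of members were 0, 0 and 6 at 3, 24 and 48 h, beside 0%, 1.36% and 61.6% of all probe sets. Same-numbered arrays of a time did not deviate together (correlations of -0.07 to 0.02). This does not show whether they were paired in the experiment, since the labels do not tie arrays to flasks. The block was not run for control cells between times, since it lies within a time. Signal near background limits CPLX2, RAB3A and SYN1 at all times and SYT1 203998_s_at at 48 h. On the arrays of sarin at 48 h other members also lay close to it. SYP stood 1.09 to 1.59 times over background there, VAMP2 201557_at 1.24 to 1.41 and 201556_s_at 1.24 to 1.91. SNAP25 202508_s_at stood at 1.05 to 2.34 times background and STX1A at 0.678 to 3.46.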
